A study of Neotoma lepida with 16 samples.

Results

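The comparison concerns the Mojave woodrats of a feeding trial with desert woodrats (Neotoma lepida): 4 animals fed creosote bush against 4 animals fed juniper, which are 8 of the 16 animals and arrays of the study. The members were taken from the sample labels alone, and no measured value chose them. All animals were caught in the wild, lived in single cages on rabbit chow for 3 months, and then ate chow with rising amounts of one plant over 5 days, before liver RNA was taken. The 4 Mojave creosote animals were all male. Of the 4 Mojave juniper animals, numbers 1 and 2 were male and numbers 3 and 4 were female. The other 8 animals came from the Great Basin and received the same diets, with 2 males and 2 females on each. Each array carried the RNA of 1 animal in the red dye and an equal pool of all 16 livers in the green dye, so a value is a log2 ratio of that animal to the average animal, where 1 unit is a 2-fold difference.

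Creosote bush dominates much of the Mojave desert, and its leaves carry a phenolic resin rich in nordihydroguaiaretic acid. Juniper foliage is rich in terpenes, and it is a common food of woodrats in the Great Basin. The liver handles both kinds of compound in steps: cytochromes P450 and other enzymes oxidise or reduce them, transferases attach a sugar, sulfate, glutathione or amino acid, and transporters move the products into bile or blood.

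Both groups had the plant in the diet, and no group stayed on chow alone. A gene described here as higher on creosote can therefore be described equally well as lower on juniper, and the words rose and fell stand for creosote relative to juniper. The creosote arrays of the Mojave animals all lay at position 2 of their slides and the juniper arrays all at position 3, so array position and diet cannot be told apart. Animals with the same number shared a slide. Differences come from a fit of all 16 arrays with a sex term, since sex and diet were not balanced. The share of probes well above background was 65.0% ± 9.45 (SD, n = 4, range 52.4% to 75.3%) on the creosote arrays and 66.5% ± 12.4 (SD, n = 4, range 48.4% to 75.4%) on the juniper arrays. The tissue is bulk liver, in which fewer cells of a type and less RNA per cell cannot be told apart. The probes were designed for rat transcripts, so genes carry the names that the array gives them, and levels of different genes are not compared with each other. The labels describe separate animals, so the errors cover differences between animals.

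Of 26482 genes tested, 2529 differed between the diets at an adjusted p below 0.05, which is 9.55% of all genes. The fall on creosote was called for 1515 genes (5.72%) and the rise for 1014 (3.83%), so 40.1% of the calls were rises. That split depended on the scaling. With median centring in place of loess, 13.7% of 4761 calls were rises, and with the red channel alone 52.7% of 1095 calls were. The count fell to 1577 without juniper animal 2 and to 1641 without juniper animal 1. It was 1060 when only males of the study were fitted and 1736 without the dimmer slide 1. A difference of at least 2-fold was seen for 246 called genes (0.929%), 115 higher and 131 lower. The 4 creosote animals stood entirely above or below the 4 juniper animals for 4428 genes (16.7%), above for 7.35% and below for 9.37% of all genes, and 2332 of these were also called. Counts of called members in the gene lists below stand against these shares over all genes: 9.55% called, 5.72% lower and 3.83% higher.

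Among named genes the steepest rise was that of Il1r2, a decoy receptor that binds interleukin-1 without signalling. Its values in creosote animals 1 to 4 were 0.79, 1.18, 1.83 and 0.28, against -1.92, -1.93, -2.29 and -2.06 in juniper animals 1 to 4. The groups lay far apart, and the juniper animals of both sexes were close to each other, while the creosote animals spread over more than 1 unit. The difference was 3.13 ± 0.36 (SE, n = 4 per group, adjusted p = 0.000197), or 8.77-fold, and with males alone it was 2.95. Elovl6, an elongase that turns palmitate into stearate, stood at 2.12, 1.30, 0.67 and 1.05 on creosote and at -1.33, -1.44, -1.64 and -1.13 on juniper, a difference of 2.53 ± 0.29 (adjusted p = 0.000176). Scd2, a desaturase that makes monounsaturated fatty acids, had values of 1.11, 1.51, 1.41 and 1.28 against -0.74, -0.62, -0.43 and -0.52. No animal of either group came near the other for these lipid genes. The Scd2 difference was 1.88 ± 0.16 (adjusted p = 1.75e-05).

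Amylase, which splits starch, was represented by 3 features, and all of them rose. Amy2 stood at 1.55, 1.03, 0.78 and 1.03 on creosote and at -1.04, -1.05, -1.84 and -1.67 on juniper, and its difference was 2.23 ± 0.27 (adjusted p = 0.00029). Amy1 differed by 1.70 ± 0.24, and a transcript described as similar to amylase 1 (XM_342323) by 2.03 ± 0.26; the last was singled out after its values were seen. The 2 female juniper animals were the lowest on each of these 3 brightest probes. Restricted to males, the difference was 2.14 for Amy2 and 1.59 for Amy1.

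Emd encodes emerin, a protein of the inner nuclear membrane. It stood at 1.83, 2.05, 1.79 and 1.57 on creosote and at -0.44, -0.26, 0.34 and -0.33 on juniper (difference 2.01 ± 0.25, adjusted p = 0.000315). G6pc, the phosphatase that releases glucose from the liver, stood at 1.19, 0.93, 1.67 and 1.19 against -0.85, -0.16, -0.45 and -0.33 (difference 1.67 ± 0.24, adjusted p = 0.000653). In both genes no creosote animal was below 0.93 and no juniper animal above 0.34. Mug2, a proteinase inhibitor of plasma, differed by 2.64 ± 0.47 (adjusted p = 0.00273), with creosote values between 0.11 and 1.91 and juniper values between -2.05 and -1.14. Cfi, the complement factor I that inactivates C3b, differed by 1.78 ± 0.34, with creosote values between 0.22 and 0.61 and juniper values between -1.53 and -0.71.

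Other large rises rested on scattered animals. Bex4 stood at 2.67, 1.73, 1.17 and -0.05 on creosote and at -0.73, -1.32, -0.79 and -0.79 on juniper (difference 2.69 ± 0.60, adjusted p = 0.0108). Fst, which encodes the activin antagonist follistatin, stood at 2.34, 1.29, -0.21 and 0.43 against -1.0, -1.21, -0.38 and -1.05, a difference of 2.16 ± 0.52 (adjusted p = 0.0155) that was no longer called without juniper animal 2 (adjusted p = 0.0526). For both genes creosote animals 1 and 2 were high, and the lowest creosote animal lay within 1 unit of the juniper group. Nploc4, an adaptor of the segregase VCP, differed by 1.69 ± 0.34 (adjusted p = 0.0056) with creosote values from 0.14 to 2.22. Hsd17b9 differed by 1.72 ± 0.37 (adjusted p = 0.00868), with creosote values from -0.31 to 1.20. Gstm5, a glutathione transferase, differed by 1.65 ± 0.45 (adjusted p = 0.0315), and its call ended without creosote animal 1 or 4 (adjusted p = 0.0827 and 0.0769) or juniper animal 1 or 4 (adjusted p = 0.113 and 0.064).

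The fall with the smallest adjusted p of all genes was that of Asf1a, a chaperone that hands histones H3 and H4 to newly made chromatin. Creosote animals 1 to 4 stood at -1.47, -1.46, -1.27 and -1.14 and juniper animals 1 to 4 at 0.59, 0.44, 0.33 and 0.37. The spread within each group was far smaller than the gap between them. The fitted difference was -1.81 ± 0.09 (adjusted p = 6.13e-08). Pfn2, a profilin that binds actin monomers, stood at -1.65, -2.02, -1.57 and -1.41 against -0.22, 0.00, 0.35 and 0.11 (difference -1.69 ± 0.19, adjusted p = 0.00017). Lgals8, a galectin that binds sugars on damaged vesicles, differed by -1.55 ± 0.16 and the kinesin motor Kif21a by -1.43 ± 0.18. The groups were separate for all of these, which the rule for naming required.

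Apoa4, an apolipoprotein carried on lipoproteins that rises with dietary fat, stood at -1.80, -1.30, -1.69 and -1.84 on creosote and at 0.08, 0.47, -0.74 and 0.00 on juniper. Juniper animal 3 was the lowest of its group but lay above every creosote animal. The difference was -1.82 ± 0.24 (adjusted p = 0.000452). Chuk, the kinase IKK-alpha of the NF-kappaB pathway, stood at -0.06, -0.76, -0.49 and -0.46 against 1.87, 1.55, 0.19 and 1.95. Juniper animal 3 was close to the creosote group. The difference of -1.94 ± 0.45 (adjusted p = 0.0136) was not called without juniper animal 1 (adjusted p = 0.0639). Copz2, a subunit of the COPI vesicle coat, differed by -1.46 ± 0.23 (adjusted p = 0.00118).

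**Figure D1:**
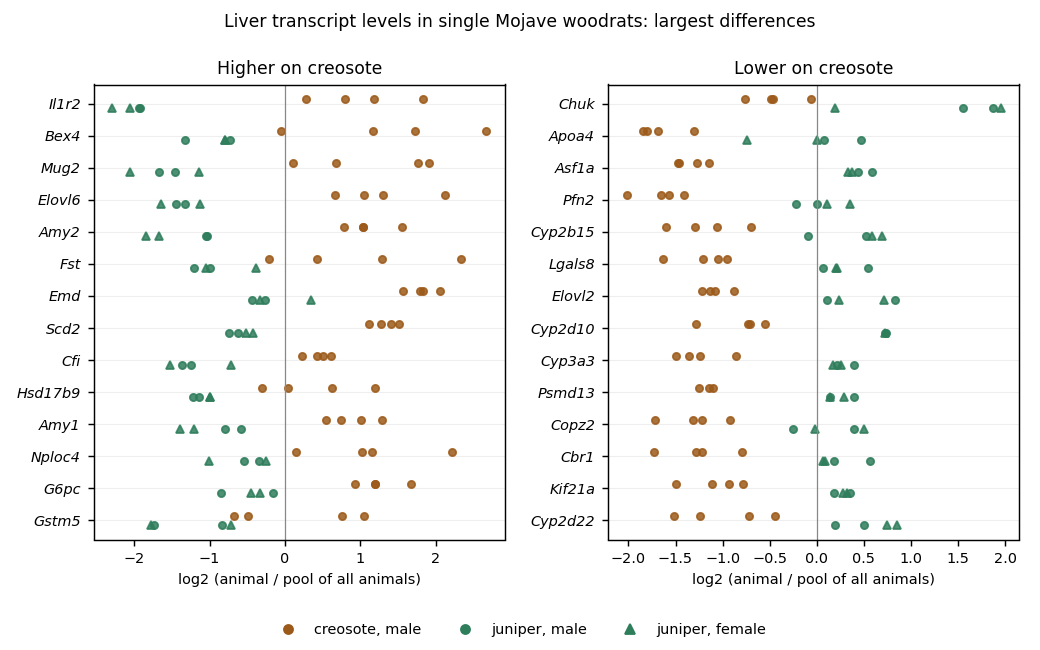
Log2 ratio of each Mojave animal to the pool of all animals for the 14 named genes with the largest rise (left) and the 14 with the largest fall (right) on creosote; brown marks creosote, green juniper, circles males and triangles females. The groups do not overlap for any of these genes, which the rule for naming required; Il1r2 runs from 0.28 to 1.83 on creosote and stays below -1.9 on juniper, and Asf1a forms 2 tight groups.

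Several of these genes had further probes that did not follow the brightest one, and sequence differences between rat and woodrat at the probes were not examined. A second probe showed no such difference for Elovl6 (0.03), Mug2 (0.08), Copz2 (-0.08) and Cyp2d22 (0.03). Scd2 had one further probe at -0.05 and one at 2.50. The further probes of G6pc (0.67), Amy2 (0.73), Elovl2 (-0.46) and Gstm5 (0.22 and 0.22) had the same sign and a smaller size, and that of Cyp2b15 had the opposite sign (0.31). The second probes of Asf1a (-1.40), Cbr1 (-1.22) and Fst (1.52) were close to the first. Over all called genes, 476 of 684 further probes (69.6%) had the direction of the brightest probe, 252 of them at an unadjusted p below 0.05, and 42 had the opposite direction at that level.

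The proteasome is the barrel-shaped protease that degrades proteins tagged with ubiquitin, with a catalytic core of alpha and beta rings and a regulatory cap of ATPases and other subunits. Of its 38 measured genes, 24 fell on creosote, none rose and 14 did not pass the test, and the median difference was -0.53, against -0.00385 over all genes tested. The median log2 ratio over the list was -0.36, -0.31, -0.48 and -0.29 in creosote animals 1 to 4 and 0.13, 0.16, 0.14 and 0.21 in juniper animals 1 to 4. All creosote animals were below 0 and all juniper animals above it. Leaving out 1 animal gave 20 to 23 falls and no rise, and males alone gave 11 falls and no rise. The same list had 27 falls and no rise in the Great Basin animals (median -0.68), so the fall was not particular to Mojave.

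Within the complex, the cap subunit Psmd13 fell by 1.49 on the log2 scale (SE 0.16, adjusted p = 0.00029), with the spot of creosote animal 4 left out as an outlier. Its other creosote values were -1.25, -1.10 and -1.14, against 0.14, 0.40, 0.14 and 0.29 on juniper. The core subunit Psma1 stood at -0.86, -0.89, -0.85 and -0.73 against 0.30, 0.13, 0.34 and 0.33 (difference -1.18 ± 0.12, adjusted p = 4.72e-05). Psma6, another alpha subunit, stood at -0.93, -0.80, -0.86 and -0.60 against 0.22, 0.21, 0.25 and 0.25 (difference -1.08 ± 0.10, adjusted p = 2.19e-05), although a second probe of Psma6 was at -0.03. Creosote animals and juniper animals formed 2 tight clusters for both subunits. The cap assembly chaperone Psmd5 fell by 1.10, the cap subunit Psmd12 by 0.92 (juniper animal 2 missing) and the ATPase Psmc4 by 0.84. The 2 largest values that did not pass belonged to the interferon-inducible subunits Psmb8 (-0.69) and Psmb9 (0.85), which varied widely between animals. Psmb9 stood at -2.58, -2.30, -2.46 and 1.17 on creosote and at -2.54, -2.52, -2.77 and 0.24 on juniper, so animal 4 was high on both diets.

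**Figure D2:**
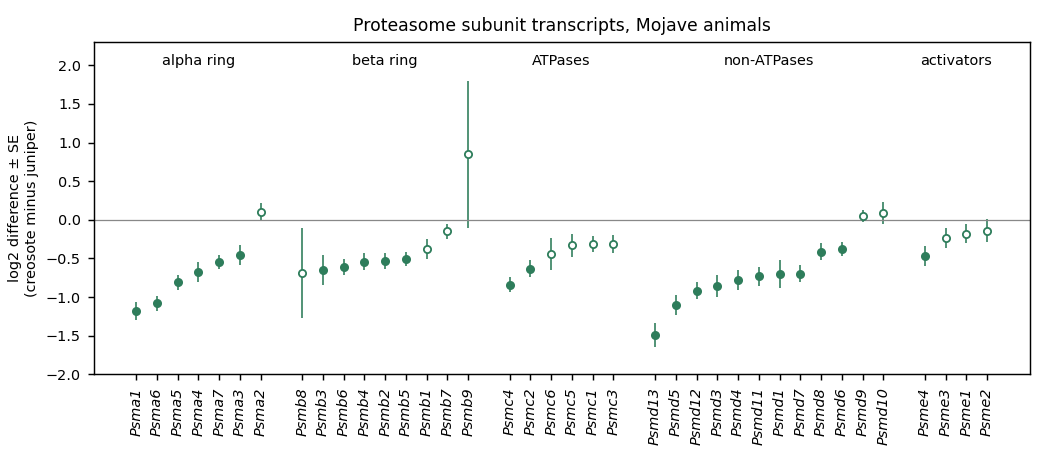
Creosote minus juniper log2 difference with its SE for the 38 measured proteasome genes of the Mojave animals, ordered within each class of subunit; filled points have an adjusted p below 0.05. The 24 filled points are all below 0, in the alpha ring, the beta ring, the ATPases, the non-ATPase cap subunits and 1 activator, Psme4.

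Ubiquitin is attached and removed by enzymes that act before the proteasome. Of 77 ubiquitin-conjugating and deubiquitinating genes, 18 fell and none rose (median -0.15). Usp5, which recycles unanchored ubiquitin chains, stood at -1.41, -1.03, -0.72 and -0.91 on creosote and at 0.28, 0.19, -0.04 and 0.30 on juniper (difference -1.24 ± 0.16, adjusted p = 0.00038). Vcp, the segregase that pulls ubiquitinated proteins out of complexes, fell by 0.82 (SE 0.14, adjusted p = 0.00202), and the deubiquitinase Usp10 by 0.84, with a second probe at -0.34. The groups did not overlap for these genes. Sqstm1, the autophagy receptor p62, fell by 0.85 on its brightest probe, while its 4 further probes were at -0.98, -0.21, 0.08 and 0.10.

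Of 71 heat shock proteins and other chaperones, which help proteins fold, 14 fell and 3 rose (median -0.14). Without juniper animal 2 the counts were 9 and 2. Hspa4l, a nucleotide exchange factor for HSP70, stood at -0.56, -1.12, -1.32 and -0.54 against 0.70, 0.37, 0.51 and 0.40 (difference -1.30 ± 0.25, adjusted p = 0.00437), with a second probe at -0.32. The HSP90 gene Hspca fell by 1.10 (SE 0.26, adjusted p = 0.0146), but its groups overlapped, since creosote animal 1 (-0.27) stood above juniper animal 1 (-0.30). Its further probes were at -1.45, -0.27 and 0.06. Dnaja3, a mitochondrial HSP40, fell by 0.97 (SE 0.12, adjusted p = 0.000343) without overlap, and Cct4 of the chaperonin ring by 0.76. The other HSP90 gene, Hspcb, fell by 0.60, with a second probe at 0.03. The small heat shock protein Hspb1 fell by 1.00 and was not called without creosote animal 1 (adjusted p = 0.0641) or juniper animal 2 (adjusted p = 0.0972). The stress-inducible Hspa1a was at -0.62 ± 0.31 and did not pass (adjusted p = 0.253).

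In the reported fit, genes of protein synthesis divided by kind. Of 46 translation factors, 9 fell and none rose (median -0.17). Falls numbered 24 with median centring (median -0.61), 4 with males alone and 2 with the red channel alone. Leaving out juniper animal 1, 2 or 3 gave 6 falls. Eif4ebp1, which holds back cap-dependent initiation when it is not phosphorylated, stood at -0.90, -0.92, -1.32 and -0.96 on creosote and at -0.07, 0.17, 0.27 and 0.14 on juniper (difference -1.15 ± 0.16, adjusted p = 0.000542). Eif3s7, a subunit of initiation factor 3, fell by 0.83 (SE 0.14, adjusted p = 0.00195). A second probe was close to the first for both, at -0.96 and -1.02. Of 72 ribosomal protein genes, 14 rose and 3 fell (median 0.15), but with median centring the counts turned to 1 rise and 12 falls (median -0.25). Males alone gave 2 rises and 1 fall, and leaving out creosote animal 1 or 2 gave 10 rises and 1 fall. Rps3a had the largest rise of that list, 0.76 ± 0.14 (adjusted p = 0.00388), at 0.95, 0.58, 0.57 and 0.16 against -0.04, -0.43, -0.04 and -0.20.

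**Figure D3:**
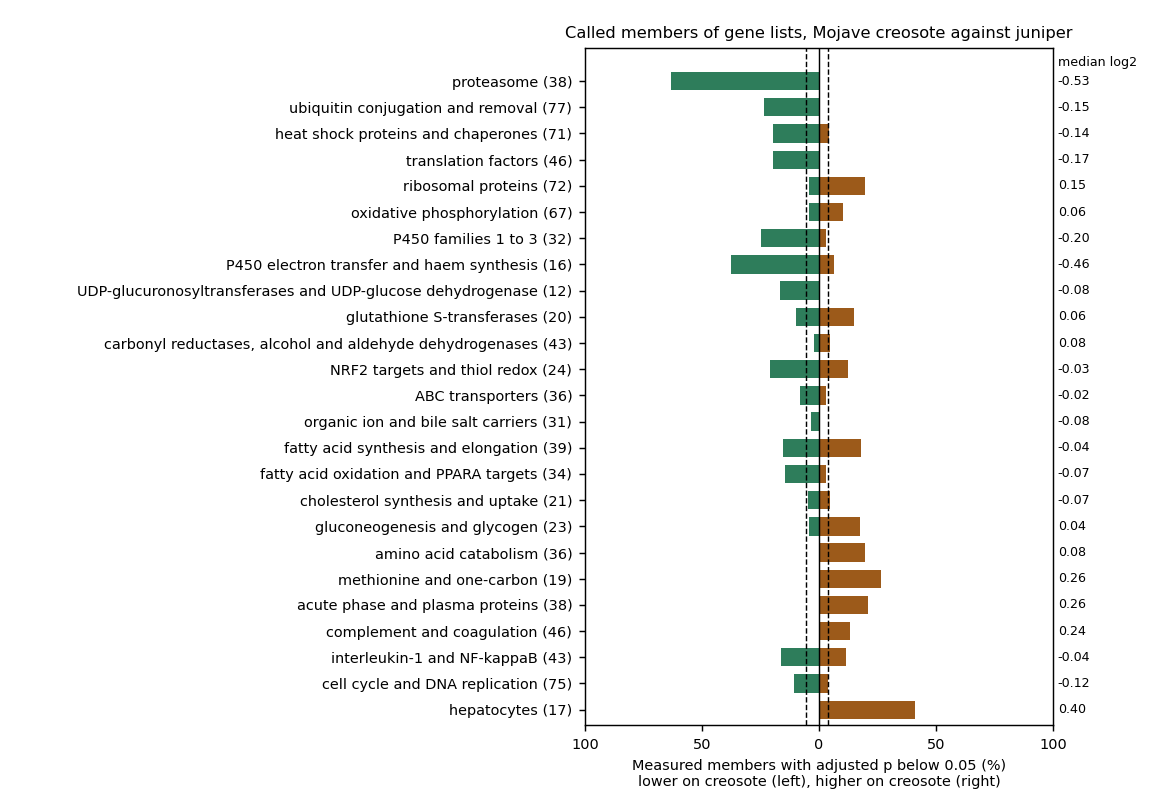
Share of the measured members of 25 gene lists with an adjusted p below 0.05 that were lower (green, left) or higher (brown, right) on creosote in the Mojave animals, with the number measured in brackets and the median log2 difference on the right; dashed lines give the share over all genes, 5.72% lower and 3.83% higher. The proteasome has the longest bar, with 24 of 38 lower; with median centring the ribosomal list turned to 1 higher and 12 lower, oxidative phosphorylation to 2 and 15, methionine to 1 and 3, amino acid catabolism to 4 and 5, and gluconeogenesis to 3 and 4, fatty acid synthesis to 6 and 10, carbonyl reductases to 2 and 4, and the median of the complement list turned to -0.12.

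Cytochromes P450 of families 1 to 3 carry out most oxidation of foreign compounds in the liver. Of 32 measured genes, 8 fell on creosote, 1 rose and 23 did not pass, with a median of -0.20. Cyp2b15, of the phenobarbital-inducible 2B subfamily, stood at -1.60, -0.70, -1.29 and -1.06 on creosote and at -0.09, 0.52, 0.69 and 0.59 on juniper (difference -1.57 ± 0.30, adjusted p = 0.00446). Cyp2b13 differed by -1.30 ± 0.30 (adjusted p = 0.0121) and Cyp2b2 by -1.15 ± 0.23 (adjusted p = 0.00666, creosote animal 4 missing). The animals did not overlap for any of the 3, but the probes of this subfamily were uneven: the second probe of Cyp2b13 was at -0.26 and the further probes of Cyp2b2 were at -1.22, -0.45 and 0.05. Genes of a subfamily this similar may share signal on a rat array, so the 3 are reported as uncertain.

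Cyp3a3, of the subfamily that oxidises the widest range of drugs, stood at -0.86, -1.50, -1.36 and -1.24 against 0.39, 0.21, 0.26 and 0.17 (difference -1.49 ± 0.19, adjusted p = 0.000317). Cyp2d22 stood at -1.24, -0.72, -1.52 and -0.44 against 0.19, 0.50, 0.75 and 0.85 (difference -1.42 ± 0.26, adjusted p = 0.00349). Cyp2d10 fell by 1.50 (SE 0.24, adjusted p = 0.00219), with juniper animal 4 missing, at -1.28, -0.73, -0.71 and -0.55 on creosote and 0.72 to 0.73 in the 3 juniper animals. In each of these genes all creosote animals were below 0 and all juniper animals above it. The single rise was that of Cyp2e1, which oxidises ethanol and small solvents, at 1.03, 1.15, 1.51 and 1.16 against 0.41, 0.58, 0.63 and 0.48 (difference 0.65 ± 0.12, adjusted p = 0.00407). Cyp1a2, the main P450 for planar aromatic compounds, was at -0.20 ± 0.35 (adjusted p = 0.821), and none of 8 genes of the fatty acid hydroxylating family 4 passed.

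P450s depend on partners that supply electrons and haem. Of 16 such genes, 6 fell, 1 rose and 9 did not pass (median -0.46), and without creosote animal 2 there were 4 falls and no rise. Por, the reductase that feeds all microsomal P450s, stood at -1.50, -0.69, -1.01 and -1.05 on creosote and at 0.16, 0.28, 0.31 and 0.04 on juniper (difference -1.19 ± 0.24, adjusted p = 0.00528). Cytochrome b5 (Cyb5) stood at -0.02, -0.36, -0.39 and 0.17 against 1.17, 1.18, 1.04 and 1.12. Its spot was saturated on all 4 juniper arrays, so juniper was at least 1.4-fold above creosote in the red channel (adjusted p of the ratio = 0.000198). Alas1, the first enzyme of haem synthesis, was at -1.29 ± 0.38 (adjusted p = 0.0427) with overlapping animals, from -1.98 to 0.30 on creosote and from 0.16 to 0.61 on juniper. Its call ended when any animal but creosote 1 was left out, with adjusted p between 0.0544 and 0.116.

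Of enzymes outside the P450s that oxidise or reduce foreign compounds, 43 genes held 2 rises and 1 fall. This is 6.98% called, against 9.55% of all genes. Without juniper animal 2 only 1 rise was called, and with median centring 2 rose and 4 fell. Fmo1, a flavin monooxygenase acting on nitrogen and sulfur groups and counted in this list, stood at 1.27, 0.81, 0.12 and 1.25 on creosote and at -1.07, -0.78, -0.84 and -0.99 on juniper (difference 1.65 ± 0.30, adjusted p = 0.00336). Cbr1, the cytosolic carbonyl reductase, moved the other way, at -1.73, -1.22, -1.28 and -0.79 against 0.18, 0.56, 0.07 and 0.09. The groups were separate for both, which the rule for naming required for Cbr1. The Cbr1 difference of -1.45 ± 0.33 (adjusted p = 0.0114) was not called without juniper animal 2 (adjusted p = 0.0619). None of 8 carboxylesterases, epoxide hydrolases and paraoxonases passed.

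Conjugating enzymes showed no common direction. Among 12 glucuronidation genes 2 fell: Ugdh, which makes the UDP-glucuronic acid that all of these transferases use, and Ugt1a2. Ugdh stood at -0.53, -1.03, -0.26 and -0.31 against 0.63, 0.65, 0.17 and 0.56 (difference -1.05 ± 0.17, adjusted p = 0.00172). Ugt1a2 was at -0.93 ± 0.20 (adjusted p = 0.00935, juniper animal 2 missing), with a second probe at 0.02. Among 20 glutathione transferases 3 rose and 2 fell. The microsomal Mgst3 stood at 0.60, 0.44, 1.00 and 0.53 on creosote and at -0.78, -0.26, -0.37 and -0.37 on juniper (difference 1.08 ± 0.17, adjusted p = 0.00142, second probe 1.20), while Gstm4 fell by 1.10 (SE 0.20, adjusted p = 0.00308) and Gsto1 by 0.87 (SE 0.17, adjusted p = 0.00394). Members of this list therefore moved in opposite directions, each of these genes without overlap between the diets. Sult1a1, which sulfates small phenols, stood at 0.79, 0.61, 0.88 and 0.51 against -0.12, 0.07, 0.05 and -0.54 and was the 1 of 10 sulfation genes called (difference 0.79 ± 0.17, adjusted p = 0.00798). Glyat, which joins glycine to benzoate and related acids, rose by 0.90 ± 0.17 (adjusted p = 0.00346).

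Genes of the thiol defence also split in the reported fit, with 5 of 24 falling and 3 rising, and 3 and 2 without creosote animal 2 or juniper animal 2. With median centring 8 fell and none rose (median -0.24). Gsr, which reduces oxidised glutathione, stood at -1.03, -0.34, -0.90 and -0.59 on creosote and at 0.15, 0.25, 0.03 and 0.14 on juniper (difference -0.84 ± 0.15, adjusted p = 0.00208). Thioredoxin (Txn1) was at -0.97 ± 0.18 (adjusted p = 0.00435, creosote animal 4 missing). Nqo1, a quinone reductase and textbook NRF2 target, was at -0.76 ± 0.22 (adjusted p = 0.0403), and its call ended without any one of 6 animals: creosote 2 or 3 (adjusted p = 0.101 and 0.0862) or juniper 1 to 4 (adjusted p = 0.0776, 0.139, 0.0536 and 0.077). The peroxiredoxin Prdx4 of the secretory pathway rose, at 0.37, -0.25, 0.81 and 0.68 against -0.56, -0.77, -0.91 and -0.58 (difference 1.12 ± 0.24, adjusted p = 0.00733).

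Transporters carry foreign compounds and their products across membranes, and nuclear receptors sense them. Of 31 organic ion and bile salt carriers, only the carnitine transporter Slc22a5 was called, at -0.74, -0.64, -0.41 and -0.39 against 0.11, 0.41, 0.17 and 0.34 (difference -0.86 ± 0.16, adjusted p = 0.00381). Of 36 ABC transporters, 3 fell and 1 rose, a share of 11.1% that is near the 9.55% of all genes. Leaving out 1 animal gave between 1 call (juniper animal 1) and 4, with 2 without creosote 1, creosote 4 or juniper 4. Among these, the mitochondrial Abcb10, which is needed for haem synthesis in red cells, was at -0.57 ± 0.13 (adjusted p = 0.0121). Of 31 nuclear receptors, 3 rose and 4 fell (22.6% called, median -0.01). The counts were 1 and 2 without juniper animal 1, 2 and 2 without juniper animal 2, 1 and 3 without juniper animal 3, and 3 and 2 without creosote animal 2, while 1 rose without creosote animal 1 or 4; median centring gave 1 rise and 8 falls. The xenobiotic receptor CAR (Nr1i3) rose, at 0.30, 0.49, 0.38 and 0.35 on creosote and -0.34, -0.36, -0.44 and -0.56 on juniper. No animal overlapped for this gene (difference 0.82 ± 0.11, adjusted p = 0.000653), but its second probe was at 0.06. The second xenobiotic receptor, PXR (Nr1i2), was at 0.11 ± 0.10 and did not pass (adjusted p = 0.572). Pparg, a receptor that favours fat storage, fell by 0.71 (SE 0.13, adjusted p = 0.00269).

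Fatty acid synthesis runs from acetyl-CoA carboxylase through fatty acid synthase to elongases and desaturases under the control of SREBP-1. Of 39 genes of synthesis, elongation and esterification, 7 rose and 6 fell (median -0.04). The number of falls was 3 without creosote animal 1, 5 without creosote animal 2 and 4 without any 1 of the other animals. Median centring gave 6 rises and 10 falls. Srebf1 stood at 0.19, 0.47, 0.22 and 0.78 against -0.85, -0.42, -0.92 and -0.99 (difference 1.29 ± 0.21, adjusted p = 0.00141), with further probes at 0.58 and 0.11. The carboxylase Acaca stood at 0.82, 1.08, -0.06 and 0.61 against -0.57, -0.62, -0.46 and -0.59 (difference 1.25 ± 0.19, adjusted p = 0.00118), with a second probe at -0.05. Creosote animal 3 was the lowest of its group for Acaca and Elovl6 alike. The synthase Fasn had the same sign, 0.64 ± 0.30, and did not pass (adjusted p = 0.23, creosote animal 4 missing); creosote animal 3, at -0.94, lay below the juniper animals, which ran from -0.60 to -0.36. The acyl-CoA synthetase Acsl5 rose by 0.91 ± 0.19 (adjusted p = 0.00804). Elovl2, which lengthens polyunsaturated chains, fell: creosote animals stood at -1.22, -1.08, -0.88 and -1.13 and juniper animals at 0.11, 0.83, 0.24 and 0.71 (difference -1.54 ± 0.16, adjusted p = 7.79e-05).

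Fatty acid oxidation carried 5 falls and 1 rise among 34 genes (median -0.07), and 8 falls without creosote animal 3. With median centring there were 13 falls and no rise. Crat, which exchanges acyl groups between carnitine and coenzyme A, stood at -1.04, -0.89, -0.51 and -0.51 on creosote and at 0.43, 0.65, 0.55 and 0.54 on juniper (difference -1.39 ± 0.17, adjusted p = 0.000305). Dci, the isomerase for unsaturated acids, fell by 1.03 (SE 0.13, adjusted p = 0.000347), and Slc25a20, the carrier that brings acylcarnitine into mitochondria, by 0.87 (SE 0.13, adjusted p = 0.00105). With Slc22a5 above, 3 genes of carnitine handling were lower on creosote in every animal; these 3 were singled out after their values were seen.

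Genes of lipoproteins differed in both directions, 2 up and 2 down of 17 (23.5% called, against 9.55% of all genes). Apoa5, which promotes clearance of triglyceride from plasma, stood at 0.61, 0.79, 1.06 and 0.95 against -0.32, -0.05, -0.57 and -0.01 (difference 1.00 ± 0.13, adjusted p = 0.000317). Hepatic lipase (Lipc) stood at 1.20, 0.80, 0.80 and 1.03 against -0.27, -0.07, -0.43 and -0.32 (difference 1.10 ± 0.17, adjusted p = 0.00125). Mttp, which loads lipid onto nascent particles, fell by 0.66 (SE 0.13, adjusted p = 0.00433) together with Apoa4. Cholesterol synthesis and uptake had 1 rise and 1 fall among 21 genes, a share of 9.52% that is near that of all genes.

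Of 23 genes of glucose synthesis and glycogen, 4 rose and 1 fell; with median centring the counts were 3 and 4. Beside G6pc, fructose bisphosphatase (Fbp1) rose by 0.79 ± 0.16 (adjusted p = 0.00592, second probe 0.96). The fructokinase Khk stood at 0.68, 0.89, 0.73 and 0.61 on creosote and at -0.06, -0.35 and -0.27 in juniper animals 1, 3 and 4, with animal 2 missing (difference 0.87 ± 0.09, adjusted p = 0.000146). The glycogen-targeting subunit Ppp1r3c rose by 1.26 ± 0.21 (adjusted p = 0.0019, second probe 0.28), while the synthase it activates, Gys2, was lower by -1.06 ± 0.23 (adjusted p = 0.00773). Gys2 overlapped between the groups, because creosote animal 3 stood at 0.01 and the other 3 between -0.89 and -0.83. Pck1, the other gate of glucose synthesis, was at -0.61 ± 0.35 and did not pass (adjusted p = 0.341).

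Of 36 enzymes that break down amino acids, 7 rose, none fell and 29 did not pass (median 0.08), and median centring gave 4 rises and 5 falls. Sds, which turns serine into pyruvate, stood at 1.35, 0.56, 1.18 and 1.11 against -0.41, 0.04, -0.74 and -0.79 (difference 1.41 ± 0.18, adjusted p = 0.00038). Gcsh, of the glycine cleavage system, stood at 1.23, 0.91, 0.80 and 1.01 against -0.27, -0.24, -0.49 and -0.33 (difference 1.28 ± 0.09, adjusted p = 4.26e-06), with a second probe at -0.08. Tyrosine aminotransferase (Tat) rose by 0.96 ± 0.20 (adjusted p = 0.00787) and histidine ammonia-lyase (Hal) by 0.96 ± 0.16 (adjusted p = 0.00179). Their animals did not overlap.

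In the methionine cycle, 5 of 19 genes rose and none fell (median 0.26), against 1 rise and 3 falls with median centring (median 0). Gnmt, which uses up S-adenosylmethionine to methylate glycine, stood at 1.36, 1.31, 1.54 and 1.53 on creosote and at 0.20, -0.11, 0.11 and 0.28 on juniper (difference 1.27 ± 0.11, adjusted p = 3.45e-05). Its spot was saturated on 3 of 4 creosote arrays. Cth, the last step from homocysteine to cysteine, stood at 0.76, 0.13, 1.11 and 0.87 against -0.05, -0.23, -0.55 and -0.49 (difference 1.04 ± 0.21, adjusted p = 0.00568). Ahcy, which splits S-adenosylhomocysteine, rose by 0.65 ± 0.12 (adjusted p = 0.00274), and the creatine-forming methyltransferase Gamt by 0.67 ± 0.14 (adjusted p = 0.00804, second probe 0.65). On the separate path from tryptophan to NAD, 2 of 13 genes rose and 1 fell (23.1% called), against no rise and 2 falls with median centring. Nmnat1, the nuclear enzyme that makes NAD, fell, at -0.92, -1.21, -0.85 and -0.74 against 0.09, 0.26, 0.16 and 0.33 (difference -1.18 ± 0.12, adjusted p = 7.53e-05). The rises were Tdo2 and Acmsd (1.00 ± 0.28, adjusted p = 0.0374). Acmsd was not called without creosote animal 1 or 2 or juniper animal 2 or 3 (adjusted p = 0.0978, 0.0919, 0.156 and 0.0729).

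**Figure D4:**
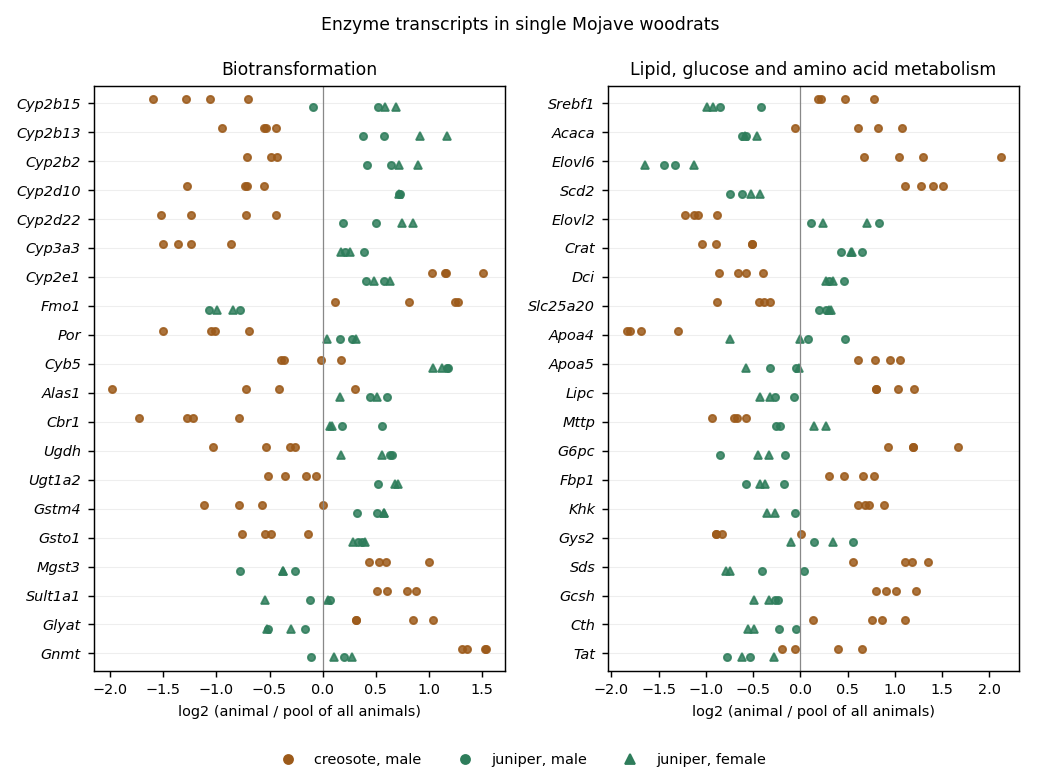
Log2 ratio of each Mojave animal to the pool for 20 genes of foreign compound handling (left) and 20 of lipid, glucose and amino acid metabolism (right); brown marks creosote, green juniper, circles males and triangles females. Por, Cyp3a3, Ugdh and Crat are lower in every creosote animal, Mgst3, Gnmt and Sds higher in every one, and Alas1 and Gys2 overlap.

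Secreted plasma proteins were higher where they were called: 8 of 38 acute phase and carrier proteins rose and none fell (median 0.26), and 4 rose without juniper animal 2. Median centring gave 6 rises and 1 fall. Albumin (Alb) stood at 1.44, 0.77, 1.01 and 1.80 on creosote and at -0.84, -0.08, -1.37 and 0.15 on juniper, with further probes at 0.81 and 0.12 (difference 1.62 ± 0.31, adjusted p = 0.00417). The vitamin D carrier Gc was at 1.63 ± 0.35 (adjusted p = 0.00897), and it was not called without juniper animal 2 (adjusted p = 0.0562). Itih3, a stabiliser of hyaluronan, rose by 1.45 ± 0.29 (adjusted p = 0.00614, juniper animal 2 missing). Of 46 complement and coagulation genes, 6 rose and none fell (median 0.24, or -0.12 with 3 rises and 2 falls under median centring). C5 stood at 0.65, 0.69, 0.49 and 0.89 against -0.47, -0.29, 0.43 and -0.09 (difference 0.91 ± 0.14, adjusted p = 0.00118), with further probes at 0.16 and 0.29.

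The hepatocyte marker list, which shares most of its genes, such as Alb, Ttr, Tat and G6pc, with the lists above, moved with these genes. Of its 17 members, 16 above background on all 8 arrays, 7 rose and none fell, or 4 and 2 with median centring, and the median level over the list ran from 0.10 to 0.40 in the creosote animals and from -0.11 to -0.02 in the juniper animals. Its part in the plasma protein result was not tested. Markers of other cells had few calls. None of 12 Kupffer cell genes and none of 12 lymphocyte genes was called, and their median levels overlapped between the diets. They ran from -0.24 to 0.17 on creosote against -0.11 to 0.01 on juniper for Kupffer cells. For lymphocytes they ran from -0.05 to 0.13 against 0.01 to 0.09. Of 10 intestine genes 1 rose and 1 fell (20% called), and of 12 neutrophil genes 1 and 1 (16.7%). Of 8 cholangiocyte genes 1 rose (12.5%), and of 6 adipocyte genes 1 fell (16.7%), against 9.55% of all genes. The intestine gene Krt20 lay between -1.61 and -0.95 over 25 alternative fits and kept its call in all. Slc5a1, the intestine rise, kept its call in 8 of 24. Of 15 stellate cell genes, Timp1 alone was called (0.53), but not without creosote animal 2 or 4 or juniper animal 2 (adjusted p = 0.0647, 0.0574 and 0.11). Of 12 endothelial genes, Xlkd1 rose by 0.56 and Tie1 was at -0.31 (second probe -0.10), which was called in no fit that left out any animal but creosote 1 (adjusted p between 0.0512 and 0.144). Of 20 amylase and exocrine pancreas genes, 3 were called: both amylases and Ela1, at 0.59 ± 0.16 (adjusted p = 0.0299, second probe 0.02), whose call ended without creosote 1 or 3 or juniper 1 (adjusted p = 0.0538, 0.0704 and 0.125). The pancreatic proteases Prss1 (0.16) and Prss2 (0.19) and the lipase Pnlip (0.04) did not pass.

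Of 43 interleukin-1 and NF-kappaB genes, 5 rose and 7 fell. The counts were 2 and 3 without juniper animal 1 and 3 and 4 without juniper animal 2, and 3 rose without creosote animal 1, 3 or 4. Beside Il1r2, the kinase Ikbkb was among the rises (0.42), but it was not called without juniper animal 2 (adjusted p = 0.076). Among the falls, the adaptor Myd88 stood at -0.82, -0.93, -0.39 and -0.41 on creosote and at -0.01, 0.20, 0.08 and 0.03 on juniper (difference -0.80 ± 0.13, adjusted p = 0.00183). The kinase Irak1, which acts next to Myd88, fell by 0.66 (SE 0.13, adjusted p = 0.00517), and Socs6 by 0.73 (SE 0.12, adjusted p = 0.00198).

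Of 75 cell cycle genes, 8 fell and 3 rose (median -0.12), which is 14.7% called against 9.55% of all genes. Falls numbered 5 without juniper animal 1 and 12 without juniper animal 2. Mcm2, of the replicative helicase, stood at -1.09, -0.72, -0.58 and -0.41 against 0.73, -0.29, 0.78 and 0.58 (difference -1.11 ± 0.22, adjusted p = 0.00562, second probe -1.18). Cdkn1b, the inhibitor p27, stood at 1.00, 0.85, 0.74 and 0.85 against -0.50, -0.25, -0.88 and -0.33 (difference 1.31 ± 0.18, adjusted p = 0.000557, second probe 1.29). E2f6, a repressor of cell cycle genes, fell by 1.16 (SE 0.15, adjusted p = 0.000343), and the kinase Cdk4 by 0.66 (SE 0.10, adjusted p = 0.00141). Of 20 p53 targets and growth arrest genes, a separate list, 4 fell and 1 rose (25% called). Males alone, or leaving out juniper animal 2, gave 2 falls and no rise. Gadd45a, a growth arrest gene induced by damage, stood at -2.23, -1.71, -1.37 and -1.35 on creosote and at -0.18, -0.27, -0.37 and -0.05 on juniper (difference -1.27 ± 0.24, adjusted p = 0.00367). Cyclin G2 (Ccng2) fell by 1.16 (SE 0.19, adjusted p = 0.00164). The rise was that of Btg1 (0.91 ± 0.27, adjusted p = 0.042). Its call ended without creosote animal 2 or any 1 juniper animal (adjusted p between 0.063 and 0.146).

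Chromatin genes held 9 falls and 4 rises among 62 (21% called, against 9.55% of all genes). The counts were 4 and 3 with males alone, 6 and 4 without juniper animal 2, and 25 and 1 with median centring. Baz2a, a part of the complex that silences ribosomal DNA, had the second smallest adjusted p of all genes, at 1.08, 0.94, 0.98 and 0.99 against -0.78, -0.65, -0.75 and -0.50 (difference 1.63 ± 0.11, adjusted p = 3.04e-06). H2afz, the histone variant H2A.Z, rose by 0.76 ± 0.13 (adjusted p = 0.00196). The nucleosome assembly gene Nap1l2 was at -1.11 ± 0.16 (adjusted p = 0.00066), with its spot above background on 2 of 4 creosote arrays, and its size depended on the background correction: it was -2.16 without the normexp offset and -3.04 with the deposited ratios. Of 22 genes of retinoid handling, 4 rose and 3 fell (31.8% called), and with median centring 2 rose and 4 fell. Cyp26a1, which clears retinoic acid, rose by 0.98 ± 0.18 (adjusted p = 0.00328). The saturase Retsat fell by 0.91 (SE 0.17, adjusted p = 0.00394), but it was not called in the fit without a sex term (-0.65, adjusted p = 0.0669).

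The same diets in the Great Basin animals gave 1052 calls (3.97%). Their creosote arrays all lay at position 1 and their juniper arrays all at position 4. Array position therefore cannot be told apart from diet there either, nor from the difference of the diet effects between populations. Of the 2529 Mojave calls, 2047 (80.9%) had the same sign there, and 544 were called in both populations with one sign, which is 21.5% of the Mojave calls and 51.7% of the Great Basin calls. Among the lists, the 38 proteasome genes had 27 falls and no rise in Great Basin. The 32 P450 genes of families 1 to 3 had 11 falls and 1 rise, and the 34 of fatty acid oxidation 8 falls and no rise. The 77 ubiquitin genes had 3 falls and 2 rises there, and the 46 translation factors 1 of each. The difference of the 2 diet effects was called for no gene (limma, 3441 genes at an unadjusted p below 0.05). The smallest adjusted p was that of Asf1a, 0.0541, for a Mojave fall larger by 0.86 (Mojave minus Great Basin -0.86 ± 0.12). For the largest Mojave differences the Great Basin value was 3.37 ± 0.33 for Il1r2, 2.67 ± 0.27 for Elovl6, -2.42 ± 0.22 for Apoa4, 1.10 ± 0.15 for Scd2 and 0.93 ± 0.23 for Emd. Among other genes described above, the Great Basin difference was near 0 for Cbr1 (0.25 ± 0.30, adjusted p of the difference between populations 0.129), Mgst3 (-0.08 ± 0.16, 0.0845), Mcm2 (0.04 ± 0.21, 0.129), Nap1l2 (-0.03 ± 0.14, 0.0845) and Myd88 (0.02 ± 0.12, 0.0979). For Nploc4 it was 0.25 ± 0.31 (0.191). None of these differences between populations passed the threshold, so they are values set side by side.

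**Figure D5:**
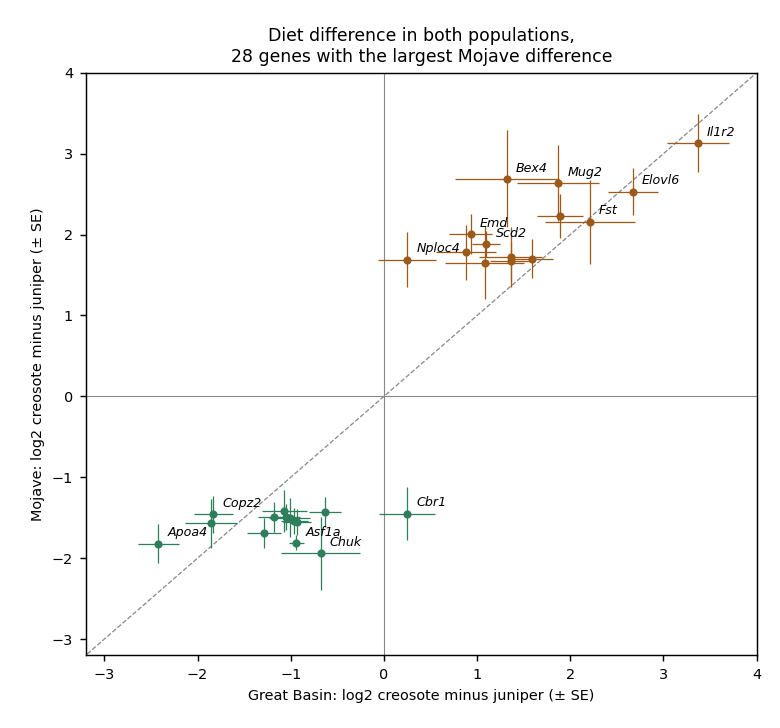
Log2 creosote minus juniper difference with its SE in Great Basin (horizontal) and Mojave (vertical) animals for the 28 genes named by size in Mojave; the dashed line marks equal differences. Of these, 27 have the same sign in both populations, and Cbr1 stands alone at 0.25 in Great Basin and -1.45 in Mojave, a difference between populations with an adjusted p of 0.129.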

How the data were processed

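Liver RNA of 16 woodrats was measured on 2-colour Agilent rat arrays, animal in Cy5 and pool in Cy3, with no dye swap. Per the file headers, the deposited scanner files hold mean, local background and processed signals as linear intensity, and a log10 ratio of processed red over green. The submitters' processing notes name Agilent Feature Extraction 9.1.3.1. The authors' own value table, on a log2 scale, matched red over green processed signal within 5e-10, uncentred, and was used as an alternative.

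Mean and background signals were corrected by normexp (offset 50) and normalised by loess in R 4.3.3 with limma 3.58.1. Outlier spots were left out, and replicate spots averaged. Probes well above background on at least 4 of 16 arrays were kept (30202 of 41012), and the brightest stood for its gene, given at least 2 values in each group. One limma model with 4 group means and a sex term (residual df 11, prior df 4.02) was fitted to all arrays, 2-sided, with Benjamini-Hochberg adjustment over 26482 genes and a threshold of 0.05. The median SE was 0.0964, which the number of arrays limits. The fitted difference is adjusted for sex and can differ from the difference of the means printed. For Cyb5, saturated in a whole group, a lower bound came from the red channel after loess and Aquantile normalisation.

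Named genes are the 14 largest rises and 14 largest falls among called genes with a symbol and no overlap of animals, up to 4 called members of each of 55 gene lists with the largest difference, and further members counted in a sentence. Further probes are given for genes described in the report where they disagree. The members and lists were chosen with earlier results of these data known. Same-numbered Mojave animals share a slide, but the deviations from their group means correlated at 0.00, -0.02, 0.04 and -0.11 over 26145 genes, so no block was used in the reported fit. The statistics were tested on simulated data. Alternatives covered background correction, scaling, filters, probes, sex, slide and left-out animals. No probe sequences were used.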

Additional observations from a re-analysis of the deposited data

Results flagged for a closer look

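Among the 171 named genes, 1 animal stood far from the other 3 of its group in 17 of 342 groups examined by Dixon's criterion. Chance gives about 1 in 20, so the count is near the chance rate, and the animals below are listed as values only. The genes were chosen by their differences, so that rate may not hold exactly for them. Among genes higher on creosote, juniper animal 2 was the low one for Bex4 (-1.32) and for the mTOR inhibitor Ddit4 (-1.47), whose call ended without it (adjusted p = 0.0658). Creosote animal 2 was the high one for the lectin Mbl1 (0.85), whose call ended without it (adjusted p = 0.0579). For the fibrinogen chain Fgb creosote animal 2 (0.85) and juniper animal 3 (0.89) met the criterion, but its spot was saturated on 3 of 4 creosote and 3 of 4 juniper arrays, so these values do not show which animal stands apart. Juniper animal 4 was the high one for the disulfide isomerase P4hb (0.16), whose call ended without any one of 5 animals (adjusted p between 0.0535 and 0.0716), and for the growth factor carrier Igfbp3 (-0.1), whose call ended without any one of 6 (adjusted p between 0.076 and 0.161). Creosote animal 3 was the high one for the respiratory chain gene Ndufb7 (0.58).

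Among genes lower on creosote, creosote animal 3 stood apart for Gys2 (0.01) and Eif4ebp1 (-1.32), and creosote animal 1 for Hspcb (-0.65) and for the initiation factor Eif4g1 (-0.93), whose call ended without creosote 2 or juniper 2 (adjusted p = 0.0542 and 0.0739). Juniper animals stood apart for Pparg (-0.09, animal 2), Abcb10 (0.36, animal 4) and Ccng2 (-0.2, animal 3). Juniper animal 3 was the low one for the clock gene Tef (-0.14), whose call ended without any animal but that one (adjusted p between 0.0534 and 0.134). Creosote animal 3 was the high one for the p53 target Perp (0.14), whose call ended without any one of 4 other animals (adjusted p between 0.0509 and 0.0748). The criterion was met by creosote animals 8 times and by juniper animals 9 times.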

How the results depend on the processing

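The 2529 genes called in Mojave became 1632 with the authors' deposited log2 ratios, 4761 with median centring, 1095 with the red channel alone, 1078 with the 8 Mojave arrays and a sex term, 1060 with males only, and 246 with a 2-fold minimum. Leaving out 1 animal gave 1577 to 2654, the lowest without juniper animal 2. Genes whose diet effect differed between populations numbered 2424 with median centring, 65 without the sex term, 14 with slide as a block, 10 with the mean over a gene's probes and 1 with the replicate block, and from 0 to 56 when 1 animal was left out, the highest without creosote animal 4. The cause of these shifts was not tested, and the smaller fits also had fewer arrays. The other alternatives stayed within 1.5 times. With the replicate block 2389 genes were called, 2184 of them shared with the reported fit, and 160 of 171 named genes kept their call; a block on the 8 Mojave arrays alone, chosen after seeing the data, called 2513. Replicate numbers did not pair the animals by the correlations of their deviations. All 28 genes named by size kept their sign in every fit that gave a value, with 22 (males only) to 28 called; Cyp2d10 and Psmd13 could not be fitted with males only. Signs reversed with median centring for Etfb (-0.01), Ass (-0.09), P4hb (-0.03) and Igfbp4 (-0.03), and with the mean over probes for Igfbp4 (-0.06), whose second probe was at -0.57 against 0.44 for the brightest. The number of arrays limits the precision, and slide 1 had fewer probes above background.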

Other observations

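Of the called genes, 1080 carried no gene symbol on the array, and the following were singled out after their values were seen. A predicted transcript described as similar to transmembrane protein 20 (LOC294072) stood at -1.66, -1.71, -1.91 and -1.48 on creosote and at 0.11, 0.43, 0.34 and 0.32 on juniper. The groups were tight and far apart (difference -1.90 ± 0.15, adjusted p = 1.1e-05), and the Great Basin difference was -0.53 ± 0.14. RGD1566185 stood at 0.95, 0.81, 0.74 and 1.19 against -0.96, -0.81, -1.06 and -0.99 (difference 1.93 ± 0.18, adjusted p = 3.45e-05), and its Great Basin difference was 1.50 ± 0.17.

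The sex term was called for 1 feature of the whole array, the expressed sequence tag BE126320 (male minus female 2.43, adjusted p = 5.03e-08), with 1157 features at an unadjusted p below 0.05 in limma. In the Mojave juniper group its values were 0.96 and 0.69 in the 2 males and -1.78 and -1.81 in the 2 females, and the creosote males ran from -0.25 to 0.34.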
